A study of Mus musculus with 32 samples.

Results

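The 2 arrays of testis from vehicle-treated mice were set against the 6 arrays of the other vehicle organs, 2 each of spleen, liver and lung, out of 32 arrays in the series. The arrays were taken by the organ and treatment in their titles, and no measured value entered the choice. All 8 came from whole organs of male NIH Swiss mice aged 7 weeks, which had received a single intravenous dose of 5% dextrose 24 hours before the organs were removed. The other 24 arrays came from the same organs after 30, 60 or 90 mg/kg of CBL0137, a DNA-binding compound that acts on the histone chaperone FACT, with 2 arrays per organ and dose. Total RNA was labelled as biotinylated cRNA and hybridised to Illumina BeadChips. Nothing in the labels ties a group's 2 arrays to different animals, so each p-value reflects only array-to-array spread, which may be technical.

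The testis makes sperm in seminiferous tubules, where spermatogonia divide, enter meiosis as spermatocytes and are remodelled as spermatids into cells with a condensed nucleus, an acrosome and a tail. Sertoli cells nurse the germ cells and seal the tubule from the blood, and Leydig cells between the tubules make androgens. Meiotic and later germ cells are known for a large set of genes used nowhere else, for germline copies of widely used proteins, and for silencing of the X chromosome during meiosis.

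Values are deposited intensities, background-subtracted and quantile normalized over all 32 arrays, and log2 differences are on a scale of log2(intensity + 16), which understates the change of dim genes. Replicate arrays of the vehicle groups correlated at r = 0.9802 to 0.9879 over all probes, 55.5% to 56.0% of probes lay above a background threshold of 7.82 to 7.89, and the number of arrays limits the precision. The vehicle spleen and lung arrays carried testis-like signal. Over 119 genes with a mean above 1000 in vehicle testis and no signal above background in vehicle liver, the median intensity was 3.04% and 5.95% of the vehicle testis mean in the 2 spleen arrays, 1.22% and 0.599% in the lung arrays, and 0.0641% and 0.0766% in the liver arrays. The choice of genes fixed the low vehicle liver values, so they do not show that liver lacked such signal. In the treated arrays the median was 0.0494% to 1.25% in spleen and 0.0365% to 0.198% in lung. The source of this signal was not tested, and it is part of the vehicle spleen values below. Lung replicate 2 stood apart in another way: the 36 hepatocyte genes on the array had a median of 4.04% of the liver mean there, against 0.591% in lung replicate 1.

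**Figure D1:**
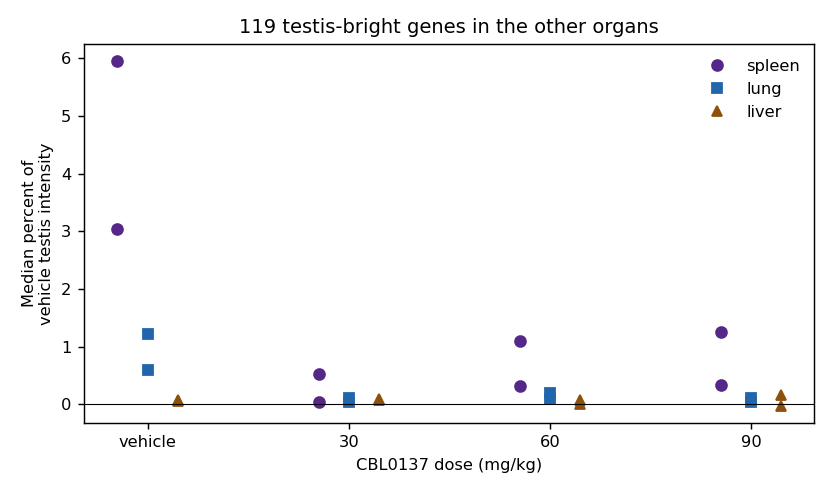
Median intensity of 119 genes bright in vehicle testis, as a percent of the vehicle testis mean, in each spleen, liver and lung array by CBL0137 dose (mg/kg), 1 point per array. The vehicle spleen arrays lie at 3.04% and 5.95%, and the treated spleen arrays lie at or below 1.25%.

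Which genes set the testis apart was asked of 11851 genes detected in both arrays of at least 1 vehicle organ. A gene is called here when its Benjamini-Hochberg adjusted p in limma was below 0.05. Against the average of the 3 organs, 3814 genes (32.2%) were higher and 5242 (44.2%) lower in testis. The organs taken singly gave 3697 genes higher (31.2%) and 4209 lower (35.5%) than in spleen, 4033 higher (34.0%) and 4439 lower (37.5%) than in liver, and 3762 higher (31.7%) and 4679 lower (39.5%) than in lung. Against all 3 organs at once, 2702 genes (22.8%) were higher and 2296 (19.4%) lower. Both testis arrays lay above all 6 other vehicle arrays for 3117 genes (26.3%) and below all 6 for 3101 (26.2%). Among genes called against each organ, 860 were at least 8-fold above the nearest organ mean on the offset scale and 93 at least 8-fold below it, while at least 32-fold gave 2 above and 6 below. When arrays were scaled to equal ribosomal protein medians instead, the genes called against each organ numbered 5134 higher and 230 lower. That scaling moved the median difference of all genes to 1.38, against -0.29 as deposited. In bulk tissue, fewer cells of a type and less RNA per cell cannot be told apart.

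Genes were also counted by detection alone. Of 16593 genes on the array, 296 were above background in both testis arrays and in none of the 6 others, or 3.17% of the genes detected in testis. The counts made the same way were 225 genes (2.56%) for liver, 147 (1.56%) for lung and 79 (0.852%) for spleen. Leaving spleen out of the comparison gave 549 testis genes, of which 132 were above background in both vehicle spleen arrays and 121 in 1 of them. The count was 137 after cyclic loess and 3375 after scaling to ribosomal proteins. Among the treated arrays, 404 to 428 genes were detected in testis alone. The brightest of the 296 was Nkapl, a germline relative of the nuclear protein Nkap. Nkapl gave 424.1 and 398.2 in testis against at most 3.3 in any other vehicle array, at least 52.0-fold higher than in each organ. Vstm2l gave 355.4 and 262.8 in testis against at most 2.8 elsewhere, at least 38.7-fold higher, and Ccdc7b gave 326.7 and 254.8 in testis against at most 6.4, at least 36.5-fold higher. For a fold given as "at least", an organ not above background entered at the higher of the gene's own value and the lowest signal detected on that array.

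The genes farthest above the nearest organ mean were led by Tssk2, a kinase of the testis-specific serine kinase family that acts in spermatids. Tssk2 gave 2652 and 3109 in testis, against 21.6 and 98.6 in spleen, 19.4 and 24.5 in liver and 22.2 and 21.6 in lung (log2 difference from the average 5.99 ± 0.36 SE, adjusted p = 1.2e-06 in limma). Defb36, a beta-defensin gene, gave 1215 and 1416 in testis, against 7.1 to 28.9 in spleen, -1.7 to 6.5 in liver and 8.5 to 9.9 in lung (5.74 ± 0.26, adjusted p = 4.0e-07). Both testis arrays lay far above the other 6 in each case, and the second spleen array was the highest of those 6. Brdt, a bromodomain protein needed to repackage sperm chromatin, gave 3245 and 3138 in testis, against 79.3 and 122.1 in spleen, 4.7 and 5.7 in liver and 27.2 and 15.8 in lung (6.16 ± 0.19). Slc9c1, a sodium-proton exchanger of the sperm tail, gave 2211 and 1948 in testis, was not above background in liver or lung, and was at least 263-fold higher than in either. Tcfl5, a transcription factor of spermatocytes and spermatids, gave 3527 and 2762 in testis against at most 127.8 elsewhere (6.29 ± 0.24). The other members of the top 15 were Trim42, Ccdc38, Gm7073, Ccdc110, Adam20, Ttll10, Glt6d1, 1700003F12Rik, Ubqlnl and Fam187b, with differences from 5.20 to 6.79.

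**Figure D2:**
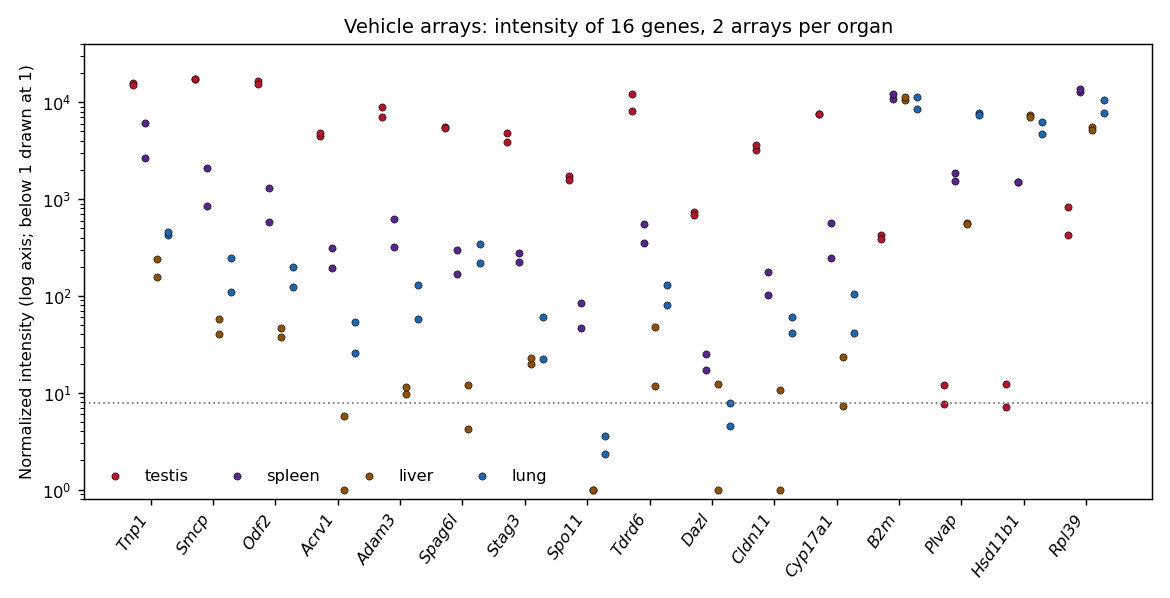
Normalized intensity (log axis, values below 1 drawn at 1) of 16 genes in each vehicle array, with testis left of spleen, liver and lung. The dotted line is the background threshold of 7.89. The first 12 genes are high in both testis arrays, and B2m, Plvap, Hsd11b1 and Rpl39 are low there.

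Genes of the finished sperm cell were higher in testis. Of 19 acrosome genes tested, 19 were higher in testis than in each organ, with a median log2 difference of 5.49. The sperm tail list had 27 of 27 tested genes higher than in each organ (median 5.20), and the list for sperm-egg contact and ADAM proteins had 22 of 22 (median 4.30). Counts cover genes that passed the detection filter, and a gene that passed it through testis alone had to differ. Over all genes tested, 22.8% were higher than in each organ, and the median was -0.29. Acrv1, a protein of the acrosomal matrix, gave 4449 and 4821 in testis, against 194.3 and 316.0 in spleen, -1.8 and 5.7 in liver and 53.6 and 25.8 in lung (6.18 ± 0.25, adjusted p = 3.3e-07). Acr, the acrosomal protease acrosin, gave 2755 and 2775 in testis and was at least 350-fold higher than in liver, where it was not above background. In the tail, Smcp, a cysteine-rich protein of the mitochondrial capsule, gave 17562 in both testis arrays, against 840.9 and 2071 in spleen, 40.1 and 57.3 in liver and 247.8 and 109.1 in lung (6.14 ± 0.37). Odf2, of the outer dense fibres, gave 16684 and 15368 in testis against at most 1308 elsewhere (6.27 ± 0.30). Akap4, an X-linked scaffold of the fibrous sheath, gave 6095 and 5166 in testis against at most 420.2 elsewhere (6.02 ± 0.32). In every one of these genes the testis arrays stood clear of the other 6, and spleen was the nearest organ.

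Among the proteins that meet the egg, Izumo1, the sperm ligand of the egg receptor Juno, gave 1444 and 1957 in testis and was at least 213-fold higher than in liver. Adam3, a sperm surface protein required for passage into the oviduct, gave 9018 and 6999 in testis, against 319.7 and 615.9 in spleen, 9.7 and 11.5 in liver and 129.4 and 57.9 in lung (6.20 ± 0.31). Clgn, a testis chaperone of the calnexin family, gave 7929 and 7723 in testis and was at least 991-fold higher than in liver. Of 17 ion channel and transporter genes tested, 16 were higher than in each organ. Over all genes tested that share was 22.8%, and the limit of the detection filter applies here and to the kinases below. Catsper1, a pore subunit of the sperm calcium channel, gave 1131 and 906.8 in testis, against 26.1 and 31.1 in spleen, and was at least 128-fold higher than in liver and lung. The exception was the proton channel Hvcn1, lower in testis at 4.4 and 6.5, against 1864 and 2830 in spleen, 16.3 and -0.2 in liver and 179.4 and 107.2 in lung. Sperm kinases and phosphatases had 14 of 16 tested genes higher and 2 lower than the average, and 12 higher in each comparison. Over all genes tested, 32.2% were higher and 44.2% lower than the average. Sik1 and Ppp1r2 were the lower ones, and neither was called when arrays were scaled to ribosomal proteins.

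Sperm nuclear proteins were higher in testis. Of 11 genes tested, 10 were higher than the average and 9 than each organ (median 4.39). Over all genes tested those shares were 32.2% and 22.8%. As above, a gene that passed the detection filter through testis alone had to differ. The median difference was 2.87 from spleen, 4.87 from liver and 5.07 from lung. Tnp1, a transition protein that replaces histones, gave 15662 and 15072 in testis, against 2684 and 6118 in spleen, 157.1 and 240.2 in liver and 427.4 and 458.2 in lung (4.39 ± 0.30, adjusted p = 2.5e-06). Prm1, a protamine that packs the sperm nucleus, gave 19722 and 18544 in testis, against 8211 and 12420 in spleen, 827.2 and 1030 in liver and 3705 and 3233 in lung (2.58 ± 0.19). For Prm1 every vehicle array was far above background, and the 2 testis arrays were still the highest. Both genes were above background in liver, so neither is among the 119 genes described above. H1f7, a spermatid linker histone, gave 2560 and 2207 in testis against at most 157.7 elsewhere (5.86 ± 0.24). Over all 32 arrays, the genes outside the lists most like the mean of this group were H2al1m, H2al1e, Nlrp14, Phf7 and Gapdhs, at Pearson r = 0.9957 to 0.9978. These arrays fall into testis and the rest, and H2al1 genes are near-identical copies whose probes may take each other's signal.

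Most genes of the axoneme, the microtubule core of a cilium, were higher in testis. The sperm tail is a modified motile cilium, and the airway lining also carries motile cilia. Of 43 axoneme genes on the array, 37 were tested. Of these, 34 were higher in testis than in each organ (median against the average 4.32), as were 22.8% of all genes tested. Again, a gene that passed the detection filter through testis alone had to differ. Median differences were 4.00 from spleen, 5.32 from liver and 3.76 from lung. Rsph1, a radial spoke protein, gave 20542 and 15526 in testis, against 647.4 and 1187 in spleen, 47.6 and 59.7 in liver and 1160 and 429.6 in lung (5.65 ± 0.37). Spag6l, of the central pair of microtubules, gave 5603 and 5381 in testis, against 168.5 and 298.6 in spleen, 11.9 and 4.2 in liver and 344.0 and 216.6 in lung (5.54 ± 0.26). For both genes the lung and spleen arrays overlapped, and liver lay below them. Tppp3, a tubulin-binding protein of ciliated cells, was the called exception, with 25.7 and 38.2 in testis, against 16.4 and 39.9 in spleen, 1.5 and 1.1 in liver and 1494 and 1475 in lung. Its difference from the average was -1.12 ± 0.22, but 0.55 when arrays were scaled to ribosomal proteins.

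Most meiosis, piRNA and spermatogonial genes tested were higher in testis than the average of the other organs. Over all genes tested, 32.2% were higher and 44.2% lower than the average, and 22.8% were higher than each organ. Here too, a gene that passed the detection filter through testis alone had to differ. Of 32 meiosis genes on the array, 23 were tested, 18 were higher than the average, 16 than each organ, and 5 were not called (median 2.20, but 1.24 with no filter on dim genes). Spo11, the enzyme that makes the DNA breaks of meiotic recombination, gave 1727 and 1577 in testis, against 46.8 and 83.7 in spleen, and was not above background in liver or lung (5.85 ± 0.19). Stag3, a meiotic cohesin subunit, gave 4846 and 3892 in testis against at most 280.6 elsewhere (5.75 ± 0.25). The 9 meiosis genes not tested include Sycp3, Dmc1 and Stra8, whose probes were not above background in both arrays of any vehicle organ, testis included, so the probes give no measure of those genes. The piRNA pathway, which silences transposons in germ cells, had 17 of 18 tested genes higher than each organ (median 4.13). Piwil1, a Piwi protein that binds piRNAs, gave 4438 and 3276 in testis against at most 227.1 elsewhere (5.60 ± 0.27). Tdrd6, a Tudor protein of the chromatoid body, gave 12292 and 8211 in testis against at most 548.0 elsewhere (6.26 ± 0.35). Of 31 spermatogonial genes on the array, 22 were tested. Of these, 14 were higher than the average, 4 were lower and 4 were not called (median 1.30, but 0.22 with no filter on dim genes). Dazl, an RNA-binding protein of early germ cells, gave 734.1 and 684.5 in testis, against 17.1 and 24.9 in spleen, -1.1 and 12.4 in liver and 7.9 and 4.5 in lung (4.81 ± 0.23). Foxo1, Tspan8, Upp1 and Bcl6b, which other organs also express, were the lower members.

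**Figure D3:**
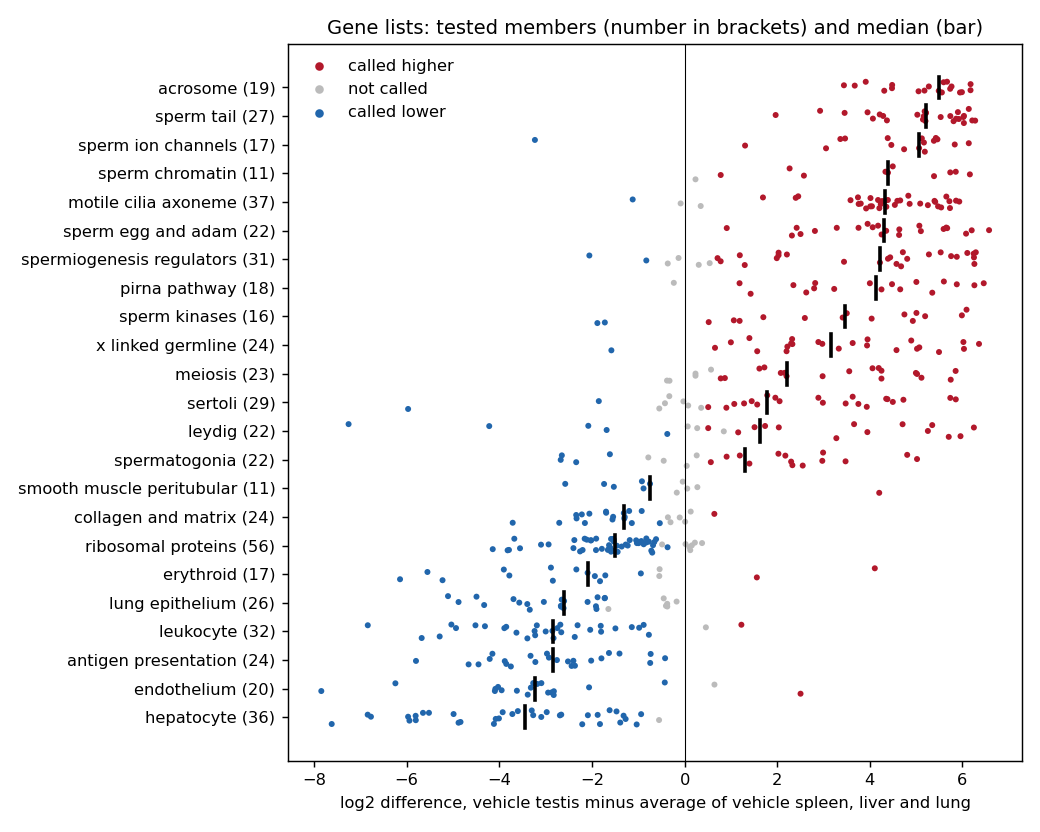
Log2 difference of vehicle testis from the average of vehicle spleen, liver and lung for each tested member of 23 gene lists, 1 point per gene, with the list median as a bar and the number tested in brackets. Sperm lists lie at medians of 3.46 to 5.49 and the hepatocyte, endothelium, antigen presentation and leukocyte lists at -3.45 to -2.84.

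Regulators of spermiogenesis, the step that shapes spermatids, had 25 of 31 tested genes higher and 2 lower than the average (median 4.22). Over all genes tested, 32.2% were higher and 44.2% lower. The limit of the detection filter applies to this list as well. Rfx2, a transcription factor of the RFX family that directs cilium and spermatid genes, gave 6278 and 4783 in testis, against 662.0 and 571.6 in spleen, 38.2 and 33.3 in liver and 361.0 and 230.6 in lung (4.68 ± 0.20). Papolb, a cytoplasmic poly(A) polymerase of spermatids, gave 4709 and 5053 in testis against at most 252.8 elsewhere (6.24 ± 0.26). The probe chosen for Crem, a master activator of spermatid genes, gave 53.8 and 61.2 in testis, against 36.5 and 36.1 in spleen, 155.2 and 210.5 in liver and 59.7 and 72.3 in lung. It was not called (-0.36 ± 0.16, adjusted p = 0.0675), and testis lay within the range of the other organs.

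Upstream sequences of 5 of these genes are shown because they hold letters that RFX or MYB family proteins are known to bind. They are the 150 bases before the gene start from RefSeq, build GRCm38.p6, written 5′ to 3′ on the gene's strand. Capitals mark AACNGTT, the MYB core, in Ldhc (chr7:46861113-46861262, plus strand), Smcp (chr3:92589074-92589223, minus strand) and Ttll10 (chr4:156050818-156050967, minus strand). They mark GTTGCC, an arm of the RFX X-box, on either strand in Ttll10, where it overlaps the MYB core, in Tekt1 (chr11:72361883-72362032, minus strand) and in Actrt1 (chrX:46328857-46329006, plus strand).
Ldhc: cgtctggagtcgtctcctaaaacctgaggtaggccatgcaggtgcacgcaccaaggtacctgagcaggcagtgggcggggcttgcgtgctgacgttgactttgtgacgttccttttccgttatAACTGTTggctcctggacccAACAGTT
Smcp: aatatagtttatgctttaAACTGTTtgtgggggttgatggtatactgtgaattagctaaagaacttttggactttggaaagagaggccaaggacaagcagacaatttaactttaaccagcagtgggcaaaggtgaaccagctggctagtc
Ttll10: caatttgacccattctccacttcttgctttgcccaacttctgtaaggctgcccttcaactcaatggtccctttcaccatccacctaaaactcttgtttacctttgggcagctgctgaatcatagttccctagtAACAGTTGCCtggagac
Tekt1: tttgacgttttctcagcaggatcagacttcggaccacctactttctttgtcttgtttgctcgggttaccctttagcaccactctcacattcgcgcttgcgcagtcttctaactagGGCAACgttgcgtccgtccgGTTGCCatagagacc
Actrt1: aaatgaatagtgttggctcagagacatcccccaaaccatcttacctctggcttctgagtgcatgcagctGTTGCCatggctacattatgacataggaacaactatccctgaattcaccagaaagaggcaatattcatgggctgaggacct

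Ldhc, the lactate dehydrogenase of sperm, has cores starting 27 and 7 bases before the gene start. Tekt1, a tektin of the tail microtubules, has GTTGCC or its reverse complement starting 35 and 15 bases before it. Tekt1 gave 4669 and 6166 in testis against at most 326.0 elsewhere and was at least 679-fold higher than in liver. Actrt1, an X-linked actin-like protein of the sperm head, gave 729.6 in both testis arrays against at most 21.8 elsewhere. Across 300-base windows around gene starts, on both strands, GTTGCC stood in 23.8% of the 694 genes with a RefSeq window out of the 860 that were at least 8-fold higher in testis. It stood in 13.6% of 1864 genes lower than in each organ, 15.1% of 9572 genes tested and 14.1% of all 27025 genes in the table. AACNGTT stood in 6.63% of the 694 genes, against 3.70% of the lower genes, 4.37% of genes tested and 5.01% of all. The cyclic AMP response element TGACGTCA stood in 3.03% of the 694 genes, against 3.38% of the lower genes, 3.09% of genes tested and 2.03% of all. These shares carry no test, the genes were grouped by their measured values, and a match is not evidence of binding.

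Most tested genes of the Sertoli and Leydig cell lists were higher than the average as well. Of 34 Sertoli cell genes on the array, 29 were tested. Of these, 21 were higher and 2 lower than the average, and 17 were higher than each organ (median 1.79). Among all genes tested, 32.2% were higher than the average and 22.8% than each organ. A gene that passed the detection filter through testis alone had to differ. Cldn11, a claudin of the blood-testis barrier, gave 3203 and 3623 in testis, against 102.9 and 175.0 in spleen, -1.4 and 10.6 in liver and 60.9 and 41.2 in lung (5.86 ± 0.26, adjusted p = 3.9e-07). Inha, the alpha subunit of the hormone inhibin, gave 287.8 and 302.3 in testis against at most 26.6 elsewhere (3.48 ± 0.15). Wt1, a Sertoli cell transcription factor, gave 593.6 and 555.5 in testis, against 306.4 and 324.9 in spleen, 2.7 and -0.9 in liver and 74.3 and 41.5 in lung (2.99 ± 0.19). Trf and Fabp5 were the lower members, Fabp5 not when scaled to ribosomal proteins: Trf, the iron carrier transferrin, gave 45.5 and 76.0 in testis, against 1573 and 1498 in spleen, 22062 and 23251 in liver and 2094 and 4201 in lung.

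Of 26 Leydig cell genes on the array, 22 were tested. Of these, 14 were higher and 5 lower than the average (median 1.62), and 11 were higher than each organ. Among all genes tested, 32.2% were higher and 44.2% lower than the average, and 22.8% were higher than each organ. The limit of the detection filter holds here too. Cyp17a1, the enzyme that turns progestins into androgen precursors, gave 7598 and 7498 in testis, against 248.2 and 563.4 in spleen, 23.3 and 7.3 in liver and 104.4 and 41.7 in lung (6.25 ± 0.37, adjusted p = 1.3e-06). Insl3, the Leydig cell hormone of testicular descent, gave 2339 and 3062 in testis, against 54.5 and 210.8 in spleen, and was at least 339-fold higher than in liver. Cyp11a1, which opens steroid synthesis from cholesterol, gave 233.9 and 161.2 in testis against at most 14.0 elsewhere (3.28 ± 0.29). Hsd11b1, which regenerates active glucocorticoid, was among the lowest genes of all in spite of its place on this list. Hsd11b1 gave 12.2 and 7.1 in testis, against 1505 and 1511 in spleen, 7348 and 7037 in liver and 6194 and 4681 in lung (-7.26 ± 0.16). Tspo, a mitochondrial cholesterol-binding protein, gave 78.3 and 131.0 in testis, against 3203 and 2477 in spleen, 1385 and 1384 in liver and 2676 and 2600 in lung.

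Immune genes were low in testis against the average of the other organs. Of 24 antigen presentation genes tested, 24 were lower than the average and 14 than each organ (median -2.84). Medians were -3.85 from spleen, -2.25 from liver and -2.78 from lung. The MHC class II genes H2-Aa, H2-Ab1, H2-Eb1, H2-DMa and H2-DMb1 were not called lower than in each organ, while Cd74 was. H2-DMb1 gave 124.8 and 125.1 in testis, against 73.5 and 56.8 in liver. B2m, the light chain of MHC class I molecules, gave 428.7 and 387.5 in testis, against 10713 and 12292 in spleen, 10545 and 11464 in liver and 11266 and 8474 in lung (-4.66 ± 0.16, adjusted p = 3.0e-07). B2m was thus low in both testis arrays and nearly level across the other 6. Tap2, a subunit of the peptide transporter for class I, gave 15.8 and 14.3 in testis, against 427.3 and 590.0 in spleen, 472.0 and 457.8 in liver and 692.0 and 794.5 in lung (-4.21 ± 0.16). Of 32 leukocyte genes tested, 30 were lower and 1 higher than the average (median -2.84), and 18 were lower than in each organ. The leukocyte median was -4.82 from spleen, -1.60 from liver and -2.42 from lung, so spleen weighs most in the average. Of all genes tested, 44.2% were lower than the average and 19.4% than each organ. The summed intensity of the leukocyte list was 1949 and 2421 in testis, against 113630 and 120120 in spleen, 6003 and 4967 in liver and 47960 and 41871 in lung. S100a8, a neutrophil calcium-binding protein, was not above background in testis and was at least 2007-fold lower than in spleen. The higher member was the Fc receptor Fcgr3, with 792.6 and 784.2 in testis, against 609.6 and 926.3 in spleen, 145.6 and 178.3 in liver and 329.8 and 241.6 in lung. In treated testis Fcgr3 ranged from 253.2 to 949.3.

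Vessel genes were low as well. Of 20 endothelial genes tested, 18 were lower than the average, 15 lower than each organ and 1 higher (median -3.22). Aqp1, a water channel of red cells and capillaries, was the farthest below: it gave 9.6 and 6.3 in testis, against 8308 and 4746 in spleen, 1896 and 1735 in liver and 13574 and 15201 in lung (-7.84 ± 0.22, adjusted p = 2.9e-07). Plvap, of the diaphragms of capillary pores, gave 12.0 and 7.7 in testis, against 1543 and 1852 in spleen, 570.5 and 555.2 in liver and 7723 and 7348 in lung (-6.24 ± 0.15). The 2 testis arrays lay at or near background for both genes, with no overlap. Ace was the higher member, at 113.3 and 185.8 in testis against at most 75.9 elsewhere (2.50 ± 0.29). Ace encodes angiotensin-converting enzyme, which also has a form made by germ cells. Of 17 red cell genes tested, 13 were lower and 2 higher than the average, where 44.2% of all genes tested were lower. The difference lay mainly against spleen, with medians of -4.86 from spleen, -0.44 from liver and -0.85 from lung. Lower than in each organ were 6 of the 17, where 19.4% of all genes tested were. Of the 2 red cell genes higher than the average, Car2, a carbonic anhydrase, was not called with the mean over its probes. The alpha-globin gene Hba-a1 gave 421.4 and 467.4 in testis, against 19928 and 22062 in spleen, 8638 and 11778 in liver and 24070 in both lung arrays, which is the highest value the normalization allows. Hemgn, a nuclear protein of blood precursors, was higher than the average, with 1164 and 1573 in testis, against 1332 and 526.7 in spleen, 2.1 and 3.7 in liver and 24.1 and 8.0 in lung.

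The medians of the matrix and smooth muscle lists changed sign with the scaling. Of 24 collagen and matrix genes tested, 18 were lower than the average, 1 was higher and 5 were not called. Their median was -1.31, but 0.36 when scaled to ribosomal proteins. The difference lay mainly against lung, with medians of -3.06 from lung, -1.18 from spleen and -0.22 from liver. Lower than in each organ were 4 of the 24, where 19.4% of all genes tested were. Of 11 smooth muscle and peritubular genes, 6 were lower, 1 was higher and 4 were not called, near the 44.2% of all genes tested that were lower (median -0.75, but 0.93 when scaled to ribosomal proteins). Actg2, an enteric smooth muscle actin, was the higher one, at 4278 and 3802 in testis, against 320.0 and 684.9 in spleen, 33.7 and 17.4 in liver and 709.1 and 382.3 in lung (4.20 ± 0.33). The defining genes of the other epithelia were low against the average, mainly through the organ they mark. Lower than the average were 35 of 36 hepatocyte genes tested and 20 of 26 lung epithelial genes, where 44.2% of all genes tested were. Only 4 and 2 of them were lower than in each organ, where 19.4% of all genes tested were. Hp, the plasma protein haptoglobin, was among the 15 lowest by margin, with 0.7 and 20.1 in testis, against 613.2 and 652.7 in spleen, 16684 and 18157 in liver and 9912 and 10002 in lung (-7.62 ± 0.26). The rest of those 15 were Dpp4, Serpina1b, Serpina1d, Clec2d, Gm8909, Ctsh, Tmem160, Scd1, Rarres2 and Ifitm3, with differences of -6.77 to -4.94.

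Many germline genes were set beside a widely expressed relative with the same task. Of 48 such pairs, 35 had both genes on the array and 21 both tested. In 20 of the 21 pairs the germline member was higher in testis than in each organ, and in 15 the wide member was lower than the average. Of all genes tested, 22.8% were higher than in each organ and 44.2% lower than the average. A germline member that passed the detection filter through testis alone had to come out higher, and in 9 of the 35 pairs the germline member was not tested. With arrays scaled to ribosomal proteins, the germline member of those 15 pairs was higher in 15, while the wide member was lower in 8, higher in 1 and not called in 6. Among glycolytic enzymes, Gapdhs gave 8584 and 6500 in testis, against 273.0 and 539.3 in spleen, 33.7 and 23.8 in liver and 108.6 and 42.2 in lung (6.03 ± 0.34). Its relative Gapdh gave 1242 and 1145 in testis, against 4797 and 5305 in spleen, 5822 and 7498 in liver and 3490 and 2769 in lung (-1.96 ± 0.17, but -0.29 with an adjusted p of 0.309 when scaled to ribosomal proteins). The 2 members thus stood on opposite sides of the other organs in every array. For lactate dehydrogenase both were higher: Ldhc by 4.29 ± 0.28 and Ldha by 1.12 ± 0.14.

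Subunits of cytochrome oxidase, the last complex of the respiratory chain, showed the same opposition. Cox8c gave 11181 and 11554 in testis, against 529.0 and 1139 in spleen, 36.3 and 32.0 in liver and 286.4 and 134.5 in lung (5.80 ± 0.33). Cox8a gave 428.9 and 466.2 in testis, against 4403 and 4315 in spleen, 5020 and 5257 in liver and 4595 and 3362 in lung (-3.27 ± 0.16). For Cox6b2 and Cox6b1 the differences were 3.90 ± 0.19 and -3.16 ± 0.19. In the cytoskeleton, Pfn4 and Pfn1, both profilins that bind actin, differed by 5.08 ± 0.24 and -2.16 ± 0.20. The chaperone Hspa2, which spermatocytes need, differed by 5.00 ± 0.22 and its relative Hspa8 by -1.72 ± 0.14, which became -0.04 when scaled to ribosomal proteins. Exceptions ran both ways: the wide members Papola (1.86 ± 0.17), Ppp3ca (0.65 ± 0.15) and Gtf2a1 (2.13 ± 0.16) were higher in testis, and the germline member Gtf2a1l was not called (-0.13 ± 0.16, adjusted p = 0.465).

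**Figure D4:**
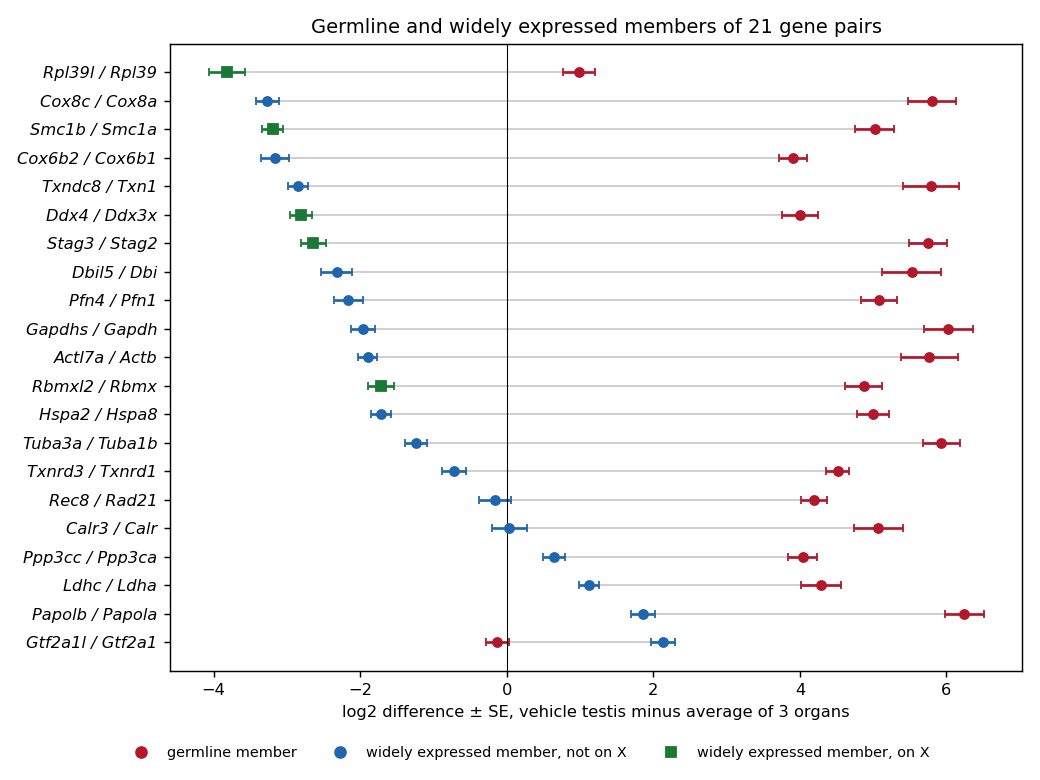
Log2 difference ± SE of vehicle testis from the average of vehicle spleen, liver and lung (2 arrays each) for both members of 21 gene pairs, germline member named first. The germline members lie between 0.99 and 6.24 except Gtf2a1l, and the 5 widely expressed members on the X chromosome (squares) lie between -3.82 and -1.72.

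Of the 10 X-linked wide members tested, 9 were lower in testis than the average (median -2.49), against 13 of 20 elsewhere (median -1.52) and 44.2% of all genes tested. The difference between the X-linked and the other wide members was not tested. The cohesin subunit Smc1a gave 77.5 and 65.9 in testis, against 1061 and 949.3 in spleen, 521.2 and 521.8 in liver and 999.6 and 850.2 in lung (-3.19 ± 0.14). Its meiotic relative Smc1b gave 1217 and 1012 in testis, against 52.2 and 119.1 in spleen, and was at least 140-fold higher than in lung (5.02 ± 0.27). Stag2 (-2.64 ± 0.17) and Stag3 (5.75 ± 0.25) formed the same opposition within cohesin. Pdha1, a subunit of pyruvate dehydrogenase, gave 57.4 and 87.5 in testis, against 1137 and 1311 in spleen, 1150 and 1256 in liver and 1381 and 1482 in lung (-3.89 ± 0.17). The probe for its germline relative Pdha2 was not above background in any organ and gives no measure of it. Cetn2 was the X-linked wide member not called (-0.51 ± 0.25, but 1.16 when scaled to ribosomal proteins).

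Ribosomal protein genes were low in testis on the deposited scale. Of 56 tested, 49 were lower and 0 higher than the average (median -1.49, but 0.18 when arrays were scaled to their own median). In limma, 1 of them, Rps20, was higher at an unadjusted p below 0.05. Those on the X chromosome, Rpl10, Rpl36a, Rpl39 and Rps4x, lay lowest, at -4.14 to -3.68 (median -3.81), against a median of -1.40 for the 52 others. Rpl39 gave 424.9 and 829.5 in testis, against 12906 and 13858 in spleen, 5527 and 5116 in liver and 10468 and 7723 in lung (-3.82 ± 0.25). Scaled to ribosomal proteins, these 4 were still called lower in testis, Rpl39 with a difference of -2.15. The germline copy Rpl39l was dim, with 20.4 and 25.9 in testis against at most 8.6 elsewhere (0.99 ± 0.21). Probes for ribosomal proteins may also take signal from processed copies elsewhere in the genome.

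X-linked genes were also counted over the whole array. Of 408 X-linked genes tested, 27.7% were lower in testis than in each organ, while the autosomes ranged from 16.2% to 22.4%. X-linked genes made up 5.59% of the 1414 genes at least 2-fold below the nearest organ, 8.51% of the 423 at least 4-fold below and 7.53% of the 93 at least 8-fold below, against 3.44% of all genes tested. None of the 23 genes at least 16-fold below was X-linked. Of the same 408, 25.7% were higher in testis than in each organ, against 22.8% of all genes tested and 19.2% to 25.9% on the autosomes. Of 609 X-linked genes on the array, 22 (3.61%) were detected in testis alone, against 296 of all 16593 genes (1.78%) and 0.979% to 2.77% on the autosomes. A list of X-linked germline genes had 28 on the array and 24 tested, of which 23 were higher than in each organ (median 3.15). A germline gene that passed the detection filter through testis alone had to come out higher. This count therefore adds nothing to the shares above. Cypt3, a cysteine-rich perinuclear protein of sperm, gave 4812 and 5920 in testis, against 149.9 and 415.2 in spleen, and was at least 676-fold higher than in liver. Taf7l, a germline subunit of a general transcription factor, gave 457.1 and 432.0 in testis and was at least 56.2-fold higher than in liver and lung. These shares were not tested, since neighbouring genes and gene copies are not independent.

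**Figure D5:**
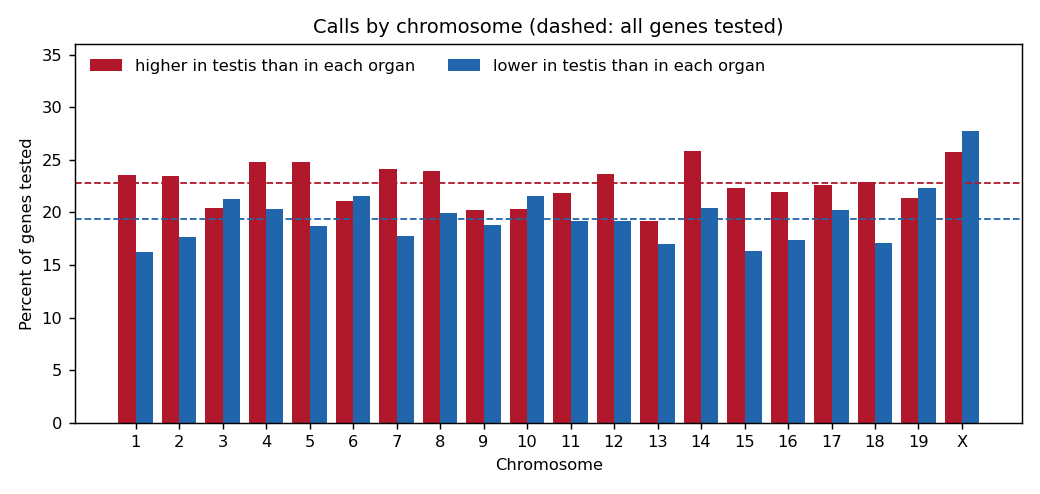
Percent of tested genes on each chromosome that were called higher (left bars) or lower (right bars) in vehicle testis than in each of vehicle spleen, liver and lung. Dashed lines mark all genes tested, at 22.8% and 19.4%, and the X chromosome stands at 25.7% and 27.7%.

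The same contrasts were computed within each CBL0137 dose, in arrays that the vehicle comparison did not use. Of the 2702 genes higher in vehicle testis than in each organ, 2458 (91.0%) were called so at 30 mg/kg, 2424 (89.7%) at 60 mg/kg and 2403 (88.9%) at 90 mg/kg. Among all genes tested, 22.2% were higher than in each organ at 30 mg/kg, 22.6% at 60 mg/kg and 22.3% at 90 mg/kg, and the shared genes made up 92.8%, 90.2% and 90.7% of those. Of the 2296 lower genes, 2032 (88.5%), 1990 (86.7%) and 1931 (84.1%) were called lower at the same doses, where 20.8%, 20.4% and 19.9% of all genes tested were lower. The 2 sperm genes followed here had larger differences in the treated arrays, in which spleen and lung held less testis-like signal. Smcp differed from the average by 8.68, 8.36 and 8.39 at 30, 60 and 90 mg/kg, against 6.14 in vehicle, with 16952 to 18835 in treated testis against at most 282.1 in any other treated array. Tnp1 differed by 7.33, 6.70 and 6.90, against 4.39 in vehicle. Among lower genes, B2m differed by -4.60, -4.63 and -4.64, against -4.66 in vehicle, and Smc1a by -3.40, -3.28 and -3.31, against -3.19. The treated organs also received the drug, so the doses are not repeats of the vehicle comparison, and the change between vehicle and dose was not tested here.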

How the data were processed

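Total RNA from testis, spleen, liver and lung was hybridised to Illumina BeadChips, 32 arrays in all. The submitters' processing notes name GenomeStudio (version not given in the sources used here) as the source of the deposited intensities. From the values, the authors' deposited intensities were background-subtracted and quantile normalized: sorted values differed by at most 1.0 between arrays, and 22.0% to 22.5% lay below 0. A deposited table of intensities before normalization repeats sample names, so 3 of its 32 signal columns served as a check (Spearman rho 1.0) and 61 per-sample columns were not used.

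Of 25697 probes, 23978 had 1 symbol, 0 had several, 1719 were unnamed and 23962 matched a RefSeq gene. Each of the 16593 genes was represented by its brightest probe across the series, and 4777 had a choice of probes. A probe was detected above the one-sided 5% quantile of its array's noise, taken from values below 0. Values below 0 were set to 0, 16 was added and log2 taken, and the 8 vehicle arrays were fitted by organ with limma 3.58.1 in R 4.3.3 (lmFit, eBayes, Benjamini-Hochberg over 11851 genes, two-sided). The fit was tested on simulated data. The members, lists and pairs were chosen with earlier results of these data known. Named genes were the 15 highest and 15 lowest by margin over the nearest organ, up to 6 called members of each list and up to 3 called the other way, both members of pairs, the 3 brightest genes detected in testis alone and the 5 most like the sperm nuclear list. Prm1, Rfx2, Crem, Inha, Wt1, Cyp11a1, Bcl6b and the members named as not detected were named after their values were seen, as were the genes with printed sequences and the motifs. Alternatives changed the offset, floor, filter, probe rule, scaling, arrays in the fit, replicate block and each array in turn. Python 3.11.15 and pandas 2.3.3 were used for tables and matplotlib 3.10.9 for figures.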

Additional observations from a re-analysis of the deposited data

How the results depend on the processing

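Of the settings that leave out 1 array, the counts higher and lower ranged from 3427 to 3780 and 4570 to 5285 against the average, 2453 to 2626 and 1969 to 2191 against each organ, 3307 to 3678 and 3746 to 4188 against spleen, 3717 to 4023 and 3964 to 4409 against liver, 3410 to 3758 and 4218 to 4664 against lung, and 319 to 385 genes detected in testis alone. Scaling to ribosomal proteins gave 8426 higher and 1171 lower against the average, 5134 and 230 against each organ, 9897 and 681 against spleen, 6383 and 1993 against liver, 7773 and 1568 against lung, and 3375 genes in testis alone. Cyclic loess gave 137 genes in testis alone, and leaving out spleen gave 549. Under cyclic loess the counts against each organ were 3086 higher and 1584 lower. Signs turned under the ribosomal scaling alone: for the lists of smooth muscle (0.93), collagen and matrix (0.36) and ribosomal proteins (0.18), and for Cetn2 (1.16), Cycs (0.34), Gtf2a1l (1.54), Mylk (0.14), Rad21 (1.51), Tagln (0.79), Tnrc6c (0.85), Tpm2 (0.75), Tppp3 (0.55), Tuba1b (0.43), Txnrd1 (0.95) and Xlr4a (0.091). Another 15 named genes lost their call there. The median of all genes was 1.38 under that scaling, against -0.29 as deposited. An offset of 50 brought closer to 0 the medians of the lists of Sertoli (0.88), Leydig (0.91), spermatogonia (0.59), meiosis (1.35), antigen presentation (-1.87) and smooth muscle (-0.35). With no filter on dim genes the medians were 0.22 for spermatogonia, 1.24 for meiosis, 1.00 for Leydig and -0.28 for smooth muscle. Tpm2, Tnrc6c, Tagln, Xlr4a and Lama2 lost their call without 1 array or without spleen, and Car2 with the mean over probes. The replicate number as a block gave 2653 higher and 2245 lower genes against each organ and changed no call of a named gene. Whether arrays with the same number came from the same mouse is not given in the labels. Correlations of replicate differences between organs were -0.155 to 0.04, which cannot settle it, since a mouse's organs need not vary together. The planned normalization of the non-normalized table with neqc was not run, because its columns could not be given to samples. Signal over background limits what dim probes show.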

Other observations

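The tested genes on the Y chromosome were mostly higher in testis, although all mice were male. Of 15 on the array, 10 were tested, and 8 were higher and 1 lower in testis than in each organ. Among all genes tested, 22.8% were higher and 19.4% lower than in each organ. A gene that passed the detection filter through testis alone had to differ. Lung replicate 2 held more hepatocyte signal than lung replicate 1, as for Serpina1b, an alpha-1 antitrypsin gene, with 29.1 and 23.3 in testis, against 6150 in lung replicate 2 and 1259 in lung replicate 1. Apoa1, the main protein of high-density lipoprotein, gave -2.6 and 0.7 in testis, against 3031 in lung replicate 2 and 434.3 in lung replicate 1. Tbp, the TATA-binding protein used by all cells, gave 1063 and 629.0 in testis, against 162.3 and 114.4 in spleen, 84.5 and 62.1 in liver and 110.0 and 83.5 in lung (log2 difference 2.86 ± 0.24, adjusted p = 8.9e-06 in limma). The probe for its relative Tbpl1 was not above background in both arrays of any vehicle organ.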
